A study of Mus musculus with 8 samples.

Results

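The genes described here are 8 heavy chains of the mouse major histocompatibility complex (MHC) class I, H2-K1, H2-D1, H2-Q4, H2-Q6, H2-Q7, H2-T22, H2-T23 and H2-T24, and their light chain B2m, chosen by symbol. All 9 were among the 27998 genes counted, and the rule used no measured value. Their RNA was followed in single hematopoietic stem and progenitor cells (HSPCs) after a single dose of interferon α (IFNα). The cells were lineage-negative, cKit-positive (LK) bone marrow cells with added LK CD150+ CD48- CD34- hematopoietic stem cells (HSCs), from 16 wild-type mice aged 12 to 14 weeks. Controls had been given 100 μl of PBS. The treated mice had a subcutaneous dose of IFNα, 50000 IU for each 20 g of mouse, 3, 24 or 72 h before collection. The 4 mice of a time point were marked with 4 hashtag antibodies and shared a droplet library, so time point and library cannot be told apart. No protein was measured in these libraries.

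MHC class I molecules hold short peptides from inside the cell on the cell surface, where CD8+ T cells and natural killer cells read them. H2-K1 and H2-D1 encode the classical, highly polymorphic heavy chains K and D, which present most of these peptides. β2-microglobulin, from B2m, is the invariant light chain without which most heavy chains do not reach the surface. The Q and T regions encode the less polymorphic class Ib chains. Among them H2-Q7 and H2-Q6 belong to the Qa-2 family, H2-T23 encodes Qa-1, which shows a leader peptide of other class I chains to the CD94/NKG2A receptor of natural killer cells, and H2-T22 encodes a ligand of a subset of γδ T cells. Interferons are known to raise class I transcription through interferon-stimulated response elements in the promoters, next to a κB site and to a module bound by RFX, CREB/ATF, NF-Y and NLRC5.

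The 8 heavy chain genes lie on chromosome 17, from H2-K1 at chr17:33996017-34000347 through H2-D1 (chr17:35262730-35267499), H2-Q4 (chr17:35379617-35385290), H2-Q6 (chr17:35424850-35430055) and H2-Q7 (chr17:35439155-35443773) to H2-T24 (chr17:36005695-36020560), H2-T23 (chr17:36029773-36032855) and H2-T22 (chr17:36037128-36042747). B2m lies apart at chr2:122147686-122153083. These positions are those of GENCODE vM21 on GRCm38, also named mm10. RefSeq promoters on GRCm38.p6, from 250 bases before to 50 bases after the start, were found for 8 of the 9 genes. H2-T24 had no entry. RefSeq and GENCODE starts differ for H2-D1 and H2-T23. The H2-D1 stretch below lies inside the GENCODE position given above, and so does most of the H2-T23 stretch. The stretches show where each RefSeq promoter carries an interferon element, written 5′ to 3′ on the strand of the gene. The capitals mark every match, on either strand, to the full interferon-stimulated response element, to a version shorter by 1 base, TTTCNNTTC, and to the κB sequence of the class I enhancer.

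H2-K1, chr17:34000389-34000477, minus strand: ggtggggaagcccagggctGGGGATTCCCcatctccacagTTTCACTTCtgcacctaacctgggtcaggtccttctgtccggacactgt
H2-D1, chr17:35262904-35262992, plus strand: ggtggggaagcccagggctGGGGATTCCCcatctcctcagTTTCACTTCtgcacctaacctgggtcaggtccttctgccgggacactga
H2-Q4, chr17:35379424-35379512, plus strand: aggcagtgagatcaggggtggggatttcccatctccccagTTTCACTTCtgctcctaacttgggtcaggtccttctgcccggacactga
H2-Q6, chr17:35424658-35424746, plus strand: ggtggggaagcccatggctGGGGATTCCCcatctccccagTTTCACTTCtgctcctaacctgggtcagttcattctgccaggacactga
H2-Q7, chr17:35439002-35439090, plus strand: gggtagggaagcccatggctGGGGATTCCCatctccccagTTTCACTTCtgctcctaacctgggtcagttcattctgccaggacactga
H2-T23, chr17:36032776-36032865, minus strand: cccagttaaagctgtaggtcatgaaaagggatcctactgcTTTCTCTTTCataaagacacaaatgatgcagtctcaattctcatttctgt
H2-T22, chr17:36042884-36042973, minus strand: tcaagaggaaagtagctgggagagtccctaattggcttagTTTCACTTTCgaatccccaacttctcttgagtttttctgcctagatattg
B2m, chr2:122147508-122147597, plus strand: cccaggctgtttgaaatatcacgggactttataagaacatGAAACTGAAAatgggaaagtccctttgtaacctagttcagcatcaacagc

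The 2 classical genes and the 3 Q genes carried the same 9 bases, TTTCACTTC, a match to the shorter element that is found in 7.56% of 27025 RefSeq promoters. H2-T22, H2-T23 and, on the opposite strand, B2m matched the full element, which is found in 3.49% of these promoters. No match to the full element overlapped one to the shorter element. The κB sequence stood just 5′ of the interferon element in H2-K1, H2-D1, H2-Q6 and H2-Q7, and 0.104% of promoters held it. Those letters were not in the window of the other 4 genes. A CCAAT box, NF-Y's sequence, was in all 8 promoters and in 37.9% of all. TGACGC, a sequence of the CREB/ATF type, was in H2-K1 and H2-D1, downstream of the start in H2-Q4, and in 7.50% of all. These are matches of letters and not measured binding.

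After filtering, the control library held 2474 cells and those of 3, 24 and 72 h held 1661, 3462 and 2449, and each mouse held between 1102706 and 26446327 unique molecular identifiers (UMIs). Control mouse 4 gave only 58 cells and, with fewer than 10 cells in each, is missing from the HSC-like, erythroid progenitor-like and megakaryocyte (MK) progenitor-like classes. Kept barcodes shared between any pair of libraries numbered 0 or 1. Cells were clustered without the class I, class II and interferon genes, and 5 classes were named from markers, with HSC-like, lymphoid-primed (LMPP-like) and myeloid progenitor-like as the other 3. LMPP-like cells were weakly set apart, since their marker sum of 187 to 388 CPM in control overlapped with a sum of up to 496 CPM in other classes. The myeloid progenitor-like class supplied a mean of 42.3% of a control mouse's UMIs but 27.2%, 30.4% and 23.8% after 3, 24 and 72 h. The HSC-like class supplied 5.25%, 12.0%, 7.77% and 11.3% in this order. Sums over all kept cells therefore mix changes within cells with changes in which cells were sorted and captured, and in such sums fewer cells of a type and less RNA per cell cannot be told apart. Genes of mature T cells summed to at most 2.02 CPM in any mouse, with Cd8a, Cd3e or both at 0 at every time point. The natural killer cell list summed to 319 to 607 CPM, of which Nkg7 made up 313 to 604 CPM, while Ncr1 was at 0 at 24 and 72 h and Gzma at 3, 24 and 72 h. Klrk1 of this list had 0 to 3.42 CPM in control and 5.18 to 11.3 CPM at 3 h. The B cell list summed to 30.3 to 59.2 CPM, of which Cd79b made up 30.3 to 45.5 CPM. Ms4a1 was at 0 in treated mice, while Ebf1 reached 9.55 CPM and Cd79a 3.83 CPM at 24 h. The dendritic cell list summed to 16.2 to 29.3 CPM, of which Flt3, also a progenitor gene, made up 15.97 to 28.6 CPM. Macrophages summed to 1.53 to 13.1 CPM and mature neutrophils to 3.92 to 7.05 CPM (Ly6g at 0 in treated mice, Cxcr2 at 3.16 to 6.96 CPM).

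Reads from stretches that genes share are hard to assign. Of the 451 stretches of 50 bases in the last 500 bases of each gene's longest protein-coding transcript, 59.2% of those of H2-T22 were also in transcripts of H2-T10. The share found in any other gene was 38.1% for H2-T23, 35.9% for H2-Q6, 33.7% for H2-Q4 and 9.53% for H2-D1. It was 6.21% for H2-Q7, 0.443% for H2-K1, and 0% for B2m and H2-T24. The levels of H2-T22, H2-T23, H2-Q6 and H2-Q4 are uncertain to this extent. The single gene that shared most was Rab33b for H2-T23 (17.3%), Efr3a for H2-Q6 (21.5%) and Gm43321 for H2-Q4 (18.4%). For these last 3 it was thus not a gene with an H2 symbol. The libraries are 3′ tagged, so CPM (UMIs per 1000000, after TMM scaling) does not grow with transcript length.

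In all kept cells, every one of the 9 genes was higher 3 h after IFNα than in control with an adjusted p under 0.05, where 19.7% of the 12042 genes tested were called higher. All p-values of fold changes are from edgeR's quasi-likelihood test over the 16 mice, with Benjamini-Hochberg adjustment over all genes tested, and fold changes are on the log2 scale with their SE. With a change of more than 1 asked for as well, 5 of the 9 were called, all from the T and Q regions, where 5.22% of all genes were called higher at 3 h. The median change of the 9 genes at 3 h was 1.07, against -0.03 over all genes tested.

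H2-T24 and H2-T22 of the T region had the largest changes of the 9 genes at 3 h. H2-T24 was near the limit of detection in control, at 2.44, 1.82, 1.92 and 0 CPM in the 4 mice, the last being 0 UMIs at a depth that allows up to 2.72 CPM. At 3 h it stood at 24.5, 27.7, 29.7 and 22.99 CPM, at 24 h at 5.95, 5.05, 5.18 and 5.37 CPM and at 72 h at 3.02, 2.69, 1.70 and 2.43 CPM. Every mouse at 3 and 24 h was above every control mouse, and the mice at 72 h overlapped with control. The change was 3.71 ± 0.16 at 3 h (adjusted p = 6.39e-15), 1.41 ± 0.17 at 24 h (adjusted p = 2.33e-06) and 0.30 ± 0.21 at 72 h (adjusted p = 0.29).

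H2-T22, the γδ T cell ligand, was measured at 62.1, 58.0, 57.5 and 66.1 CPM in control, 212, 225, 221 and 201 CPM at 3 h, 105, 126, 120.2 and 114 CPM at 24 h and 80.6, 75.2, 77.8 and 82.9 CPM at 72 h. All treated mice stood above all control mice. The change was 1.85 ± 0.058 at 3 h (adjusted p = 1.58e-17), 0.97 ± 0.055 at 24 h and 0.41 ± 0.058 at 72 h (adjusted p = 1.03e-05). H2-T23, which encodes Qa-1, had 185, 200.3, 189 and 205 CPM in control and 451, 490.1, 486 and 457 CPM at 3 h. It then had 270.0, 311, 276 and 268 CPM at 24 h and 229, 212, 209 and 231 CPM at 72 h. Mice at 3, 24 and 72 h were all above the highest control mouse. Its changes were 1.29 ± 0.051 (adjusted p = 1.74e-15), 0.55 ± 0.050 (adjusted p = 3.04e-08) and 0.19 ± 0.051 (adjusted p = 0.005) at the 3 times. The 72 h rise is that of all kept cells and was not seen in the class means. The mean of H2-T23 at 72 h was 0.977 times control in HSC-like and 0.930 times in LMPP-like cells. It was 0.985, 0.942 and 0.863 times control in myeloid, erythroid and MK progenitor-like cells. Mice overlapped with control in each of these classes. The part of the changed class shares in the 72 h rise was not tested.

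**Figure D1:**
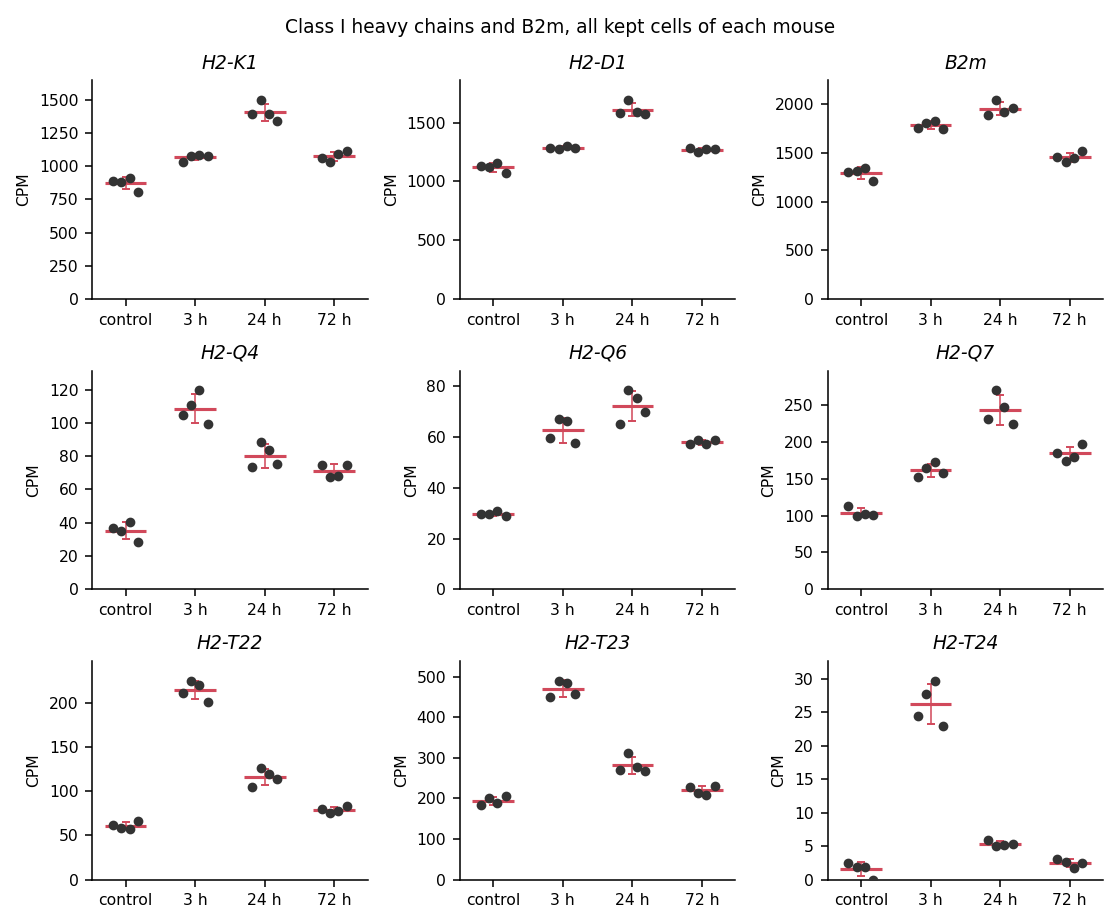
Level of each gene in CPM (vertical axis, from 0) in the summed kept cells of each mouse (points), with the mean (line) and SD (bar) of the 4 mice of control, 3, 24 and 72 h. H2-T22, H2-T23, H2-T24 and H2-Q4 are highest at 3 h, and H2-K1, H2-D1, B2m, H2-Q6 and H2-Q7 at 24 h.

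The Q region genes differed among themselves in time. H2-Q4 had 36.8, 35.3, 40.4 and 28.7 CPM in control, 105, 111, 119.5 and 99.5 CPM at 3 h, 73.7, 88.7, 83.8 and 75.1 CPM at 24 h and 74.7, 67.4, 68.0 and 74.7 CPM at 72 h. It changed by 1.56 ± 0.077, 1.12 ± 0.073 and 0.94 ± 0.075 in this order, with adjusted p-values of 1.05e-13, 9.33e-11 and 2.62e-09. Of the 9 genes H2-Q4 and H2-Q6 held the largest changes at 72 h, where the lowest treated mouse was still above the highest control mouse for both. H2-Q6 had 29.6, 29.6, 30.9 and 28.7 CPM in control, 59.5, 67.2, 66.4 and 57.5 CPM at 3 h, 65.3, 78.3, 75.3 and 69.9 CPM at 24 h and 57.0, 58.8, 57.2 and 58.8 CPM at 72 h. Its changes were 1.07 ± 0.067, 1.27 ± 0.060 and 0.95 ± 0.062 (adjusted p = 7.98e-12, 3.28e-13 and 9.75e-11). H2-Q7, of the Qa-2 family, was lower at 3 h than at the later times, with 112, 99.7, 101 and 101 CPM in control, 152, 164, 172 and 158 CPM at 3 h, 231, 269, 247 and 223 CPM at 24 h and 185, 175, 179.8 and 197 CPM at 72 h. It changed by 0.63 ± 0.061, 1.22 ± 0.058 and 0.82 ± 0.059 (adjusted p = 1.91e-08, 3.88e-13 and 4.89e-10).

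The classical heavy chains and B2m, the genes of highest level, changed least at 3 h. H2-K1 had 887, 879, 911 and 805 CPM in control, 1033, 1077, 1087 and 1079 CPM at 3 h, 1389, 1496, 1394 and 1336 CPM at 24 h and 1059.8, 1030.1, 1089.5 and 1110.0 CPM at 72 h. H2-D1 had 1128, 1119.9, 1155 and 1071 CPM, 1281, 1278, 1302 and 1282 CPM, 1582, 1690.1, 1588 and 1569 CPM and 1286, 1245, 1276 and 1271 CPM in the same order. B2m had 1306, 1314, 1343 and 1208 CPM, 1757, 1813, 1828 and 1751 CPM, 1892, 2042, 1918 and 1959 CPM and 1458, 1406, 1444 and 1519 CPM. For all 3 genes the treated mice were above the control mice at every time, and the mice at 24 h were above those at 3 h. At 3 h, H2-K1 was higher by 0.29 ± 0.037 (adjusted p = 1.53e-06), H2-D1 by 0.20 ± 0.028 (adjusted p = 4.53e-06) and B2m by 0.46 ± 0.032 (adjusted p = 6.73e-11). At 24 h these changes were 0.68 ± 0.037, 0.52 ± 0.027 and 0.59 ± 0.032, and at 72 h 0.29 ± 0.037, 0.18 ± 0.027 and 0.17 ± 0.032. At 72 h their adjusted p-values were 2.26e-06, 2.60e-05 and 3.38e-04.

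At 24 h all 9 genes passed an adjusted p of 0.05 as higher than in control, and the 3 Q genes and H2-T24 also a change over 1. These shares compare with 14.5% and 1.46% of all genes. At 72 h 8 of 9 passed the p alone and none the change over 1, against 18.9% and 1.70% of all genes.

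A direct comparison of 24 h with 3 h, in the same fit over the 16 mice, split the genes. Control mice entered its scaling and its estimate of the spread, though not the difference itself. From 3 to 24 h, H2-T24 fell by 2.30 ± 0.13 (adjusted p = 1.42e-12), H2-T22 by 0.88 ± 0.05 (adjusted p = 4.20e-12), H2-T23 by 0.74 ± 0.05 (adjusted p = 2.93e-11) and H2-Q4 by 0.44 ± 0.07 (adjusted p = 3.58e-05). Over the same interval H2-Q7 rose by 0.59 ± 0.057 (adjusted p = 3.21e-08), H2-K1 by 0.39 ± 0.036 (adjusted p = 1.31e-08), H2-D1 by 0.32 ± 0.027 (adjusted p = 2.64e-09), H2-Q6 by 0.20 ± 0.059 (adjusted p = 0.012) and B2m by 0.13 ± 0.032 (adjusted p = 0.004). Between 3 and 24 h, 12.3% of all genes were called higher and 16.3% lower. From 24 to 72 h, 8 of the 9 genes fell, where 5.38% of all genes did, and H2-Q4 differed by -0.17 ± 0.067 with an adjusted p of 0.11. The promoters shown above with the shorter element belong to the 4 genes that rose from 3 to 24 h together with B2m, and to H2-Q4, which fell. Those of H2-T22 and H2-T23, which fell, and of B2m, which rose, have the full element. These directions are those of all kept cells and did not hold in every class. In myeloid progenitor-like cells the mean of H2-Q4 was 2.19 times control at 3 h and 2.41 times at 24 h. In HSC-like cells that of H2-Q6 was 1.63 and 1.49 times control, and that of B2m 1.28 times at both times.

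**Figure D2:**
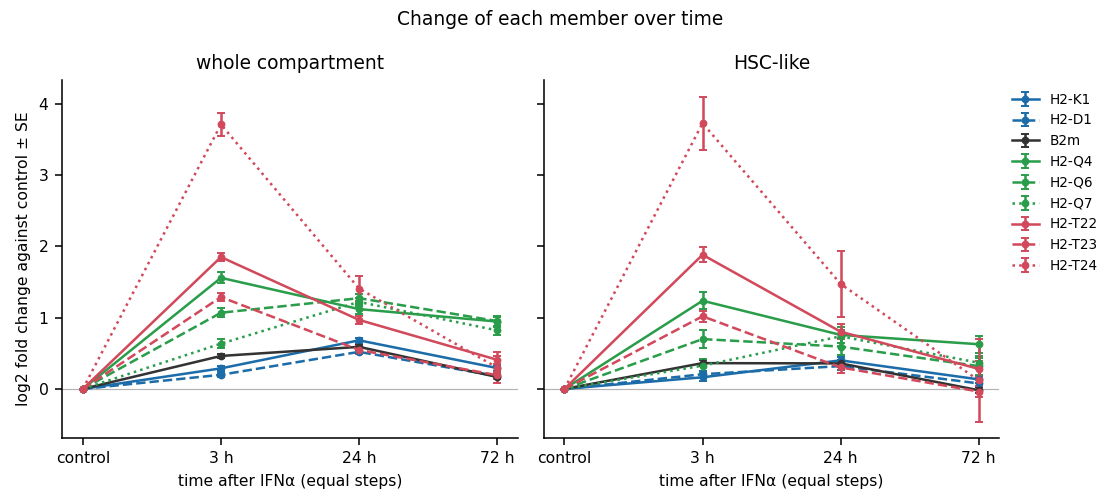
Log2 fold change against control with its SE (vertical axis) of each gene at 3, 24 and 72 h, in all kept cells (left) and in the HSC-like class (right). Classical genes are blue, B2m black, Q region genes green and T region genes red. The red lines peak at 3 h in both panels, and the blue lines at 24 h.

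The scale of the 3 h values changed with the normalization and with a fit that weighted the classes equally. With library size alone in place of TMM, the median of all genes at 3 h was lower by 0.15, and H2-K1 changed by 0.14 and H2-D1 by 0.047, which no longer passed (adjusted p = 0.16). With the 5 classes given equal weight in each mouse, H2-K1 and H2-D1 changed by 0.15 and 0.15 at 3 h, while H2-T22 changed by 1.70, H2-T24 by 2.91 and H2-Q4 by 1.29. This fit used limma on log2 CPM (prior count 2) and left out control mouse 4, so method and mice differ as well as the weight. The 2.91 of H2-T24 is below its edgeR change in each of the 5 classes (2.93 to 3.81). The parts of weight, method and mice were not tested. At 72 h the same weighting gave -0.091 for H2-T23, where all kept cells had given 0.19, and 0.044 for B2m (adjusted p = 0.33, limma), so that both calls were lost. Without the clusters led by class II genes or by basophil, mast cell and eosinophil genes, no change of the 9 genes against control moved by more than 0.0327.

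In control mice, the HSC-like class had the highest mean CPM of the 5 classes for each of the 9 genes. CPM is a share of a cell's UMIs, and depth differed between classes. The median control cell of a mouse held 10709 to 11391 UMIs in HSC-like and 26410 to 34570 in myeloid progenitor-like cells. A higher CPM therefore need not be a higher count per cell. H2-K1 had 1499.9 ± 83.4 CPM (SD, n = 3) in HSC-like cells, 1298 ± 29.9 CPM (n = 3) in MK progenitor-like, 984 ± 42.0 CPM (n = 4) in LMPP-like, 675 ± 79.1 CPM (n = 4) in myeloid progenitor-like and 538 ± 92.4 CPM (n = 3) in erythroid progenitor-like cells. Neighbours in this order did not overlap between mice, except the last pair. H2-D1 spanned a narrower range, from 1516 ± 77.4 CPM in HSC-like to 709.5 ± 70.8 CPM in erythroid progenitor-like cells, and overlapped between HSC-like and MK progenitor-like and between LMPP-like and myeloid progenitor-like cells. B2m followed the order of H2-K1, from 2015 ± 71.8 to 949 ± 78.1 CPM, with overlap in the last pair alone.

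The nonclassical genes were spread more widely over the classes. H2-Q6 was lowest in myeloid progenitor-like cells, at 11.5 ± 1.79 CPM, against 84.8 ± 3.86 CPM in HSC-like cells. H2-Q7 was likewise lowest there, at 39.1 ± 6.50 CPM against 229 ± 32.1 CPM. H2-Q4 had 93.1 ± 10.1 CPM in HSC-like, 17.3 ± 4.19 CPM in myeloid progenitor-like and 15.96 ± 1.097 CPM in erythroid progenitor-like cells, the last 2 overlapping. H2-T23 had 407 ± 13.8 CPM in HSC-like and 98.0 ± 8.73 CPM in myeloid progenitor-like cells. H2-T22 had 104 ± 10.7 and 97.6 ± 9.82 CPM in HSC-like and MK progenitor-like cells, which overlapped, and 29.9 ± 4.30 CPM in erythroid progenitor-like cells. H2-T24 lay between 0 and 4.34 CPM in every class and mouse of control, and no neighbours in its order were separate. Each difference between classes is a description of 3 or 4 mice that shared a library.

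**Figure D3:**
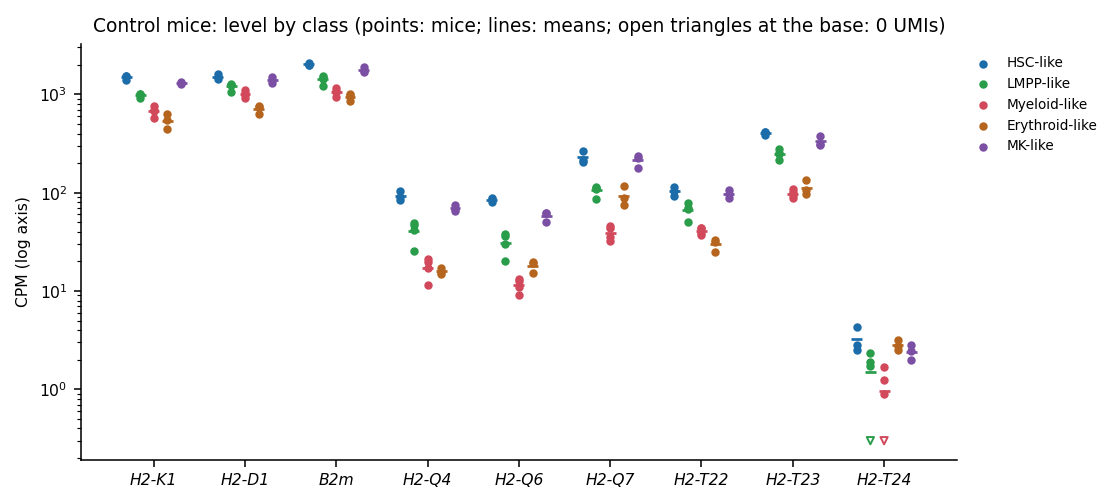
Control level of each gene by class, in CPM on a log axis, with mice as points and class means as lines. Open triangles at the base mark mice with 0 UMIs, which occur for H2-T24 alone. The HSC-like mean is the highest of the 5 classes for each gene, and the lowest is that of erythroid or myeloid progenitor-like cells.

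Clusters within a class differed too. In erythroid progenitor-like cells of control, H2-K1 had 847 CPM in the cluster led by Car1 (carbonic anhydrase) and 343 CPM in the one led by the hemoglobin gene Hba-a1. The hemoglobin cluster made up 40.8% of this class before treatment and 25.5% after 3 h. The part of this shift in the changes of the class was not tested as such, and values within the Car1 cluster are given with them. Among clusters with no class name, one led by Gzmb, Scin and Cd74 had B2m at 2387 CPM, above the 2015 ± 71.8 CPM of the HSC-like class, and the cluster led by the class II genes Cd74 and H2-Aa had H2-D1 at 2720.0 CPM and H2-K1 at 1006 CPM.

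Within the HSC-like class, a single cluster, all 9 genes were higher at 3 h with an adjusted p under 0.05, where 9.97% of 9202 genes were, and H2-Q4, H2-T22, H2-T23 and H2-T24 also changed by more than 1, as did 4.21% of genes. With 1 mouse left out at a time, 3 to 4 of the 9 were called with a change over 1. H2-T22 had 115, 93.1 and 103 CPM in the 3 control mice and 396, 382, 379.8 and 393 CPM at 3 h, a change of 1.88 ± 0.10 (adjusted p = 1.35e-18). At 24 h it had 153, 195, 186 and 191 CPM, and it was 0.80 ± 0.10 above control and 1.08 lower than at 3 h on the log2 scale. The groups of 3 and 24 h did not overlap with control or with each other. H2-T23 had 413, 391 and 416 CPM in control and 748, 798, 809 and 955 CPM at 3 h (1.02 ± 0.077, adjusted p = 4.19e-14), and 466, 550.3, 484 and 499 CPM at 24 h. H2-T24 rose by 3.73 ± 0.37 at 3 h (adjusted p = 1.66e-10), and its 1.47 ± 0.46 at 24 h missed the threshold (adjusted p = 0.077).

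The classical genes moved little in HSC-like cells at 3 h. H2-K1 had 1548, 1404 and 1548 CPM in control, 1600.1, 1691, 1722 and 1709.5 CPM at 3 h and 2028, 2035, 1947 and 1918 CPM at 24 h. The changes were 0.16 ± 0.047 (adjusted p = 0.014) and 0.40 ± 0.046 (adjusted p = 3.57e-08). The 3 h value is within the reach of the scaling, since library size alone gave -0.060 for H2-K1 and -0.018 for H2-D1, whose main value was 0.21 ± 0.050. The H2-K1 call at 3 h was also lost without the low count filter (adjusted p = 0.057), without the neighbour correction of the classes (0.12), without control mouse 2 (0.15), and with the class I and interferon genes kept in the clustering, where the change was 0.066 (adjusted p = 0.34). That of H2-Q7, 0.33 ± 0.10, was lost with library size alone (adjusted p = 0.47) and without control mouse 2 or 3 or 3 h mouse 2 or 3 (adjusted p = 0.053 to 0.14). B2m changed by 0.36 ± 0.046 at 3 h and 0.36 ± 0.045 at 24 h. At 24 h 8 of the 9 genes were called higher by the p alone, against 2.31% of genes, and none changed by more than 1 with it, against 0.522%. Among these the H2-T23 call was lost without control mouse 2 (adjusted p = 0.082) or 24 h mouse 2 (0.099). At 72 h H2-Q4 (0.63 ± 0.12, adjusted p = 5.32e-04) and H2-Q7 (0.37 ± 0.093, adjusted p = 0.015) were the 2 of the 9 that passed, against 2.06% of genes. The H2-Q7 call was lost with library size alone (adjusted p = 0.057) and without control mouse 2 or 3 or 72 h mouse 3 or 4 (adjusted p = 0.057 to 0.18).

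In LMPP-like cells, 8 of 9 genes were called higher at 3 h by the p alone (12.1% of 10001 genes) and 3 with the change over 1 (3.77%), namely H2-T24 (3.17 ± 0.32), H2-T22 (1.47 ± 0.083) and H2-Q4 (1.08 ± 0.11). H2-K1 had 984, 1010.3, 1018 and 925 CPM in control and 1072, 1033, 1005 and 1106 CPM at 3 h, a change of 0.080 ± 0.042 (adjusted p = 0.19), and 1486, 1578, 1544 and 1432 CPM at 24 h, a change of 0.60 ± 0.040 (adjusted p = 1.53e-13). The 24 h mice stood clear of both other groups. All 9 genes were called higher at 24 h by the p alone (4.92%), 3 of them with the change over 1 (0.96%). The H2-T24 call among them was lost with the hashtag number as a replicate block (adjusted p = 0.052) and without control mouse 1, 2 or 3 or 24 h mouse 1, 3 or 4 (adjusted p = 0.057 to 0.14).

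The smaller changes in LMPP-like cells depended on the settings. The 3 h change of H2-D1, 0.12 ± 0.043 (adjusted p = 0.048), was -0.040 with library size alone, and its call was lost under DESeq2 (adjusted p = 0.052) and when any 1 of 14 of the 16 mice was left out. The 3 h call of H2-Q6 was lost with library size alone, without the neighbour correction and with the class I and interferon genes in the clustering (adjusted p = 0.060 to 0.15), and that of H2-Q7 with library size alone (adjusted p = 0.094). At 72 h H2-K1, H2-Q4, H2-Q6 and H2-Q7 were higher by the p alone, where 4.21% of genes were. The H2-K1 call, at 0.13 ± 0.040, was lost with library size alone, without the low count filter, without the neighbour correction, with those genes in the clustering and with at least 20 cells asked for (adjusted p = 0.055 to 0.53), and without control mouse 1, 2 or 4 or 72 h mouse 1, 2 or 3 (0.055 to 0.11). The H2-Q4 call was lost with those genes in the clustering (adjusted p = 0.22). H2-D1 passed at 72 h with the hashtag number as a replicate block (adjusted p = 0.046). Within the larger LMPP-like cluster the 72 h calls of H2-K1 and H2-Q4 were lost (adjusted p = 0.20 and 0.073). Those of H2-D1 at 3 h (0.32) and H2-T24 at 24 h (0.060) were lost there too. H2-T23, at -0.15 ± 0.056 (adjusted p = 0.11), was lower at 72 h with library size alone (-0.21, adjusted p = 0.011) and within the larger cluster (-0.19, adjusted p = 0.048).

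In the myeloid progenitor-like class as a whole, neither classical gene passed the test at 3 h with TMM scaling, while with library size alone both were lower. H2-K1 had 697, 673, 761 and 571 CPM in control and 703, 666, 696 and 706 CPM at 3 h, and H2-D1 1022, 992, 1105 and 918 CPM and 995, 993, 977 and 1005 CPM. The groups overlapped, with changes of -0.00012 ± 0.053 (adjusted p = 1.00) and -0.043 ± 0.041 (adjusted p = 0.49). Library size alone gave -0.14 (adjusted p = 0.040) and -0.18 (adjusted p = 5.18e-04). B2m changed by 0.18 ± 0.045 (adjusted p = 0.003), and by 0.037 with library size alone (adjusted p = 0.52). The cluster led by Elane (neutrophil elastase) gave -0.14 for H2-D1 at 3 h, which passed the test there. The 3 h call of B2m was lost within this cluster (adjusted p = 0.12) and within the one led by Ms4a6c (0.15). At 24 h H2-K1 had 1132, 1192, 1132 and 1124 CPM (0.72 ± 0.049, adjusted p = 1.93e-13) and H2-D1 1519.7, 1615, 1584 and 1529 CPM (0.61 ± 0.039, adjusted p = 2.91e-14), above every control mouse.

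H2-Q6 and H2-Q7, of the Qa-2 family, had their largest changes in this class at 24 h. H2-Q6 had 12.5, 11.01, 13.3 and 9.20 CPM in control, 22.9, 14.7, 16.9 and 16.4 CPM at 3 h, 43.4, 46.0, 35.3 and 39.2 CPM at 24 h and 34.3, 23.8, 30.5 and 26.7 CPM at 72 h. It changed by 0.55 ± 0.18 at 3 h (adjusted p = 0.020), 1.76 ± 0.11 at 24 h (adjusted p = 2.03e-14) and 1.27 ± 0.13 at 72 h (adjusted p = 7.66e-09). H2-Q7 changed by 0.23 ± 0.13 at 3 h (adjusted p = 0.20), 1.44 ± 0.084 at 24 h and 1.00 ± 0.10 at 72 h. The share of the class held by the cluster led by S100a8 fell from 24.6% of its cells in control to 6.72% at 3 h. Within the Elane cluster H2-Q6 still changed by 1.56 at 24 h and 1.05 at 72 h, and within the cluster led by Ms4a6c and F13a1, a monocyte gene, by 1.99 and 1.58, each past the test. At 3 h its changes within these 2 clusters, 0.45 (adjusted p = 0.22) and 0.66 (0.14), did not pass. The 3 h call in the class was also lost with library size alone (adjusted p = 0.070) and without control mouse 2 (0.061) or 3 h mouse 1 (0.15). Of the 9 genes, 6 were called higher at 3 h by the p alone (13.7% of 9640 genes) and 2 with the change over 1 (3.4%), 9 (8.96%) and 4 (1.09%) at 24 h, and 6 (7.61%) and 1 (0.664%) at 72 h. Among these, the 24 h call of H2-T24 was lost under DESeq2 (adjusted p = 0.093) and without control mouse 2 or 3 or 24 h mouse 2 (0.052 to 0.089). It was also lost within the cluster led by Ms4a6c (0.17). The 72 h call of H2-T22 was lost under DESeq2, with library size alone and without control mouse 2 or 72 h mouse 1, 2 or 3 (adjusted p = 0.051 to 0.14). Within the Elane cluster H2-T22 changed by 0.057 at 72 h (adjusted p = 0.88). B2m passed in the class at 72 h without control mouse 3, 24 h mouse 3 or 4 or 72 h mouse 2 (adjusted p = 0.022 to 0.045).

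Erythroid progenitor-like cells started lowest for H2-K1, H2-D1, B2m, H2-Q4 and H2-T22 and had the largest fold changes of the 5 classes at 3 h for all 9 genes. H2-T22 had 32.9, 25.0 and 31.9 CPM in the 3 control mice and 128, 183, 186 and 199 CPM at 3 h, 2.55 ± 0.14 higher (adjusted p = 2.52e-15). H2-Q4 had 14.996, 15.7 and 17.2 CPM and 50.6, 63.5, 90.3 and 91.9 CPM, 2.23 ± 0.19 higher (adjusted p = 8.61e-11). In both genes the treated mice stood clear of control. Within the Car1 cluster alone, without the hemoglobin cluster whose share had fallen, H2-T22 changed by 2.19 and H2-Q4 by 1.82, both past the test. H2-K1, by contrast, changed by 0.49 ± 0.091 in the class and by 0.051 within the Car1 cluster, and H2-D1 by 0.43 ± 0.069 and 0.18, neither of which passed there. At 3 h all 9 genes were called higher by the p alone (9.06% of 8396 genes) and 5 with the change over 1 (4.07%). The H2-Q7 call at 3 h was lost with library size alone (adjusted p = 0.060) and within the Car1 cluster (0.61). At 24 h the counts were 9 (6.18%) and 5 (1.69%), and at 72 h 2 (3.11%) and 2 (0.548%), H2-Q4 and H2-Q6. H2-Q7 also passed at 72 h without the low count filter, with the replicate block or with at least 20 cells asked for (adjusted p = 0.016 to 0.041). It passed too with the class I and interferon genes in the clustering (0.038) and without control mouse 2, 3 h mouse 1 or 72 h mouse 1 (0.004 to 0.045). Without the 2% of cells with the most UMIs, B2m, H2-K1, H2-D1 and H2-Q7 passed (0.013 to 0.049). The 24 h call of H2-T24 was lost within the Car1 cluster (adjusted p = 0.29).

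In MK progenitor-like cells, 6 of 9 genes were called higher at 3 h by the p alone (8.43% of 8682 genes) and 3 with the change over 1 (3.55%). At 24 h the counts were 8 (2.67%) and 0 (0.426%), and at 72 h 3 (2.83%) and 0 (0.426%). H2-K1 changed by 0.048 ± 0.056 at 3 h (adjusted p = 0.70) and 0.41 ± 0.053 at 24 h (adjusted p = 7.19e-07). H2-T22 changed by 1.49 ± 0.11 at 3 h and H2-T23 by 0.75 ± 0.081. The 3 h calls of B2m and H2-Q6 were lost with library size alone (adjusted p = 0.26 and 0.073), that of H2-Q6 also without control mouse 2 (0.067) or 3 h mouse 2 (0.060). The 24 h call of H2-T23 was lost without control mouse 1 or 3 or 24 h mouse 2 (adjusted p = 0.094 to 0.12). The 72 h call of H2-Q6 was lost with the class I and interferon genes in the clustering and without control mouse 2 or 72 h mouse 1 (adjusted p = 0.085 to 0.18). From 3 to 24 h, H2-T22, H2-T23 and H2-T24 fell and H2-K1 and H2-Q7 rose in HSC-like, LMPP-like, erythroid and MK progenitor-like cells with an adjusted p under 0.05. In HSC-like cells 2 of the 9 genes rose (3.72% of all genes) and 4 fell (9.19%), in LMPP-like 5 rose (5.6%) and 3 fell (11%), in myeloid progenitor-like 5 rose (8%) and 2 fell (12.2%), in erythroid progenitor-like 3 rose (1.44%) and 4 fell (6.77%), and in MK progenitor-like cells 4 rose (2.29%) and 4 fell (7.45%). In myeloid progenitor-like cells H2-T22 was the exception, at -0.22 ± 0.084 (adjusted p = 0.058).

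**Figure D4:**
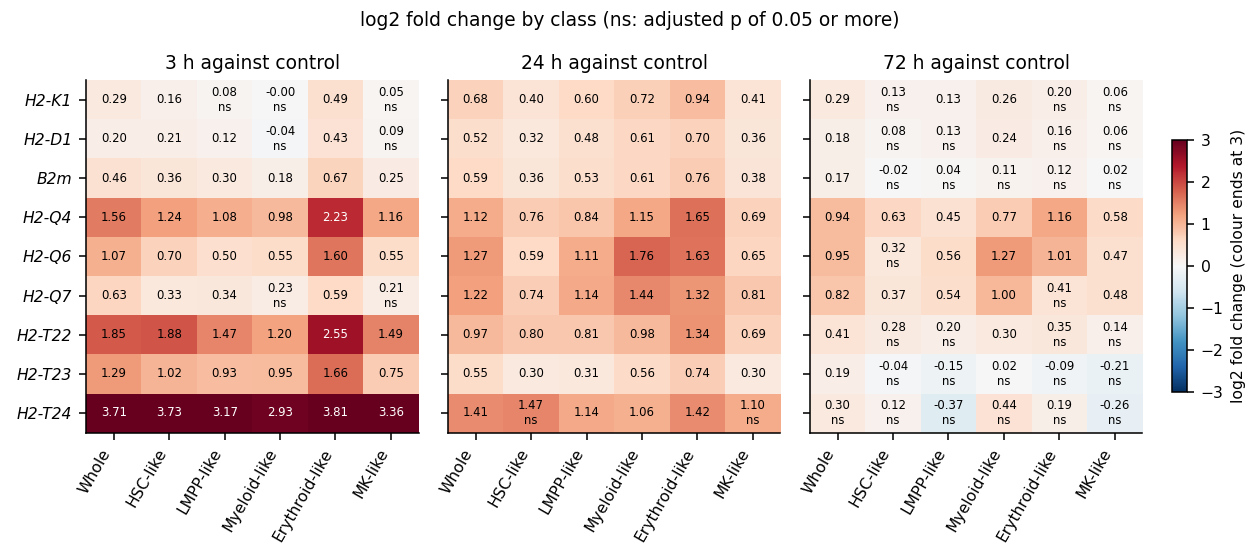
Log2 fold change against control (colour and number in each cell) of the 9 genes (rows) in all kept cells and the 5 classes (columns) at 3, 24 and 72 h, with ns marking an adjusted p of 0.05 or more. At 3 h the rows of the T region genes and H2-Q4 are darkest and the rows of H2-K1 and H2-D1 are pale. At 24 h H2-Q6 and H2-Q7 are strongest in the myeloid and erythroid columns.

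The response of HSC-like cells was set against that of each other class by limma on the difference of log2 CPM within a mouse, with adjustment over all genes tested. Control mouse 4 does not enter these fits. No gene of the 9 passed an adjusted p of 0.05 in any of the 12 comparisons, in which between 0% and 1.68% of all genes did. An unadjusted p under 0.05 (limma) was reached 24 times in the 108 tests, 12 of them against erythroid progenitor-like and 8 against myeloid progenitor-like cells. The share of all genes at this unadjusted threshold was not counted, and the same 9 genes and HSC-like values recur in these tests. No excess over all genes can be read from these counts. The closest to the threshold was H2-T22 at 3 h, whose change in HSC-like minus myeloid progenitor-like cells was 0.67 ± 0.16 (SE, adjusted p = 0.061). H2-Q6 at 24 h differed by -1.14 ± 0.22 (SE, adjusted p = 0.14) against myeloid and by -1.01 ± 0.29 (SE, adjusted p = 0.53) against erythroid progenitor-like cells. H2-K1 at 24 h differed by -0.29 ± 0.13 (SE, adjusted p = 0.81) and -0.55 ± 0.19 (SE, adjusted p = 0.57) against the same classes. The classes are thus not shown to differ in response, and differences of these sizes are not shown to be absent.

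To see whether few or many cells carried the change, each cell was thinned to 5000 UMIs and its UMIs of the 8 heavy chains were summed. Cells with fewer UMIs were left out, 35 from the control library and 61, 35 and 68 from those of 3, 24 and 72 h. The median cell of the 4 mice held 13 to 14 heavy chain UMIs in control. At 3 h it held 17 to 18, at 24 h 19 to 22 and at 72 h 16 to 17. The 10th percentile of cells went from 5 to 7 in control to 8 to 9 at 3 h and 11 to 13 at 24 h, and the 90th from 24 to 25 to 28 to 31 and 31 to 35. Both ends of this mixed distribution moved with the median, and the part of the changed class shares was not tested. Within HSC-like cells both ends were above control at 3 h (13.8 to 18 against 11.8 to 13.5, and 35 to 38.8 against 30 to 31). In myeloid progenitor-like cells both overlapped with control (4 to 5 against 3.4 to 6, and 15.7 to 17 against 11.6 to 17). In LMPP-like, erythroid and MK progenitor-like cells the 90th percentile at 3 h overlapped with or met that of control, while the 10th percentile was above control. The 10th percentile was 9 to 11 against 6.9 to 8 in LMPP-like cells. In erythroid progenitor-like cells it was 4.4 to 10 against 2.8 to 4, and in MK progenitor-like cells 12.8 to 13 against 9 to 11. Without thinning, the median cell of a mouse held 46 to 54 heavy chain UMIs in control. It held 42 to 45 after 3 h, 76 to 86 after 24 h and 50 to 53 after 72 h. These came at median depths of 15818 to 19085, 11355 to 13248, 17791 to 20231 and 13990 to 15281 UMIs.

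By class, the median of HSC-like cells went from 20 to 21 in control to 24 to 26 at 3 h and 26 to 28 at 24 h, without overlap with control. The mean difference of the HSC-like medians at 3 h was 4.17 UMIs, and 1.61 when cells were thinned to 8000 UMIs and scaled to 5000. The depth of 8000 left out 179 cells of the control library and 354 of that of 3 h. The median HSC-like cell at 3 h held 8102 to 8475 UMIs, so the 2 depths compare different sets of cells. The median of myeloid progenitor-like cells was 7 to 11 in control, 10 to 11 at 3 h and 14.5 to 16 at 24 h, and that of erythroid progenitor-like cells 8 to 9, 9 to 12 and 14 to 17. The 3 h difference in erythroid progenitor-like cells was 2.38 UMIs, and 3.75 and 3.78 at thinning depths of 3000 and 8000, scaled to 5000. LMPP-like cells had 14 to 15, 14 to 17 and 20 to 22, and MK progenitor-like cells 17 to 18, 18 to 22 and 22 to 24. The 24 h mice were above every control mouse in all 5 classes. The exact permutation test of mice gave its smallest possible value, p = 0.0286 for 4 against 4 mice and p = 0.0571 for 4 against 3, for all of these 24 h comparisons. Adjusted over the 18 comparisons these are p = 0.103 and p = 0.114, in a design where the exact permutation test cannot give an adjusted value below 0.0571.

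**Figure D5:**
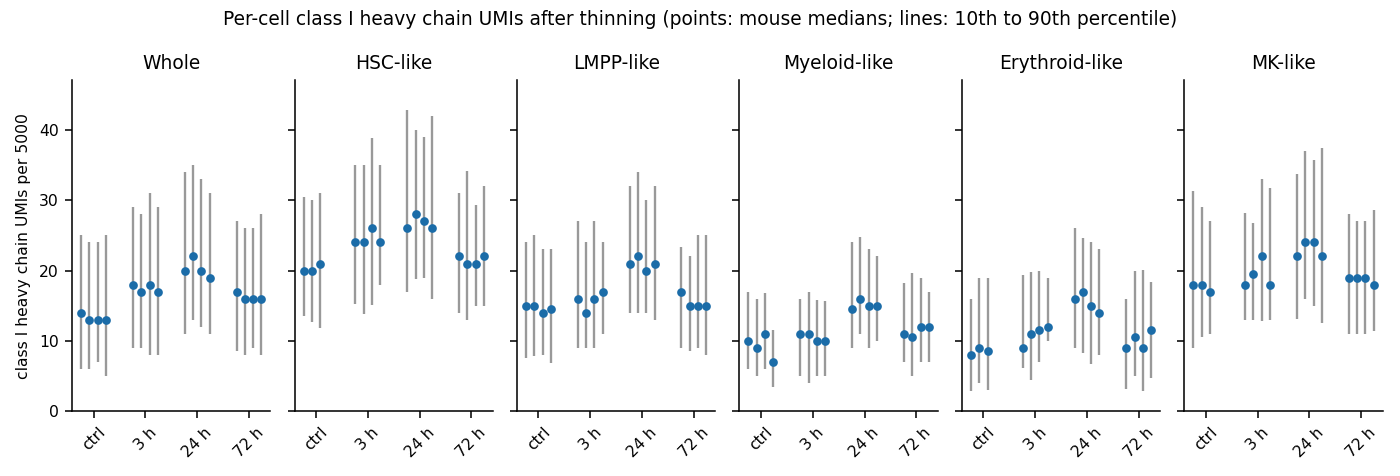
Heavy chain UMIs per cell thinned to 5000 UMIs (vertical axis), with the median of each mouse as a point and the 10th to 90th percentile of its cells as a line, for control, 3, 24 and 72 h in all kept cells and in 5 classes. At 24 h points and both line ends lie above control in every panel.

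The balance between the light chain and the heavy chains was read as shares of UMIs. B2m made up 34.9% ± 0.351 (SD, n = 4) of the UMIs of the 9 genes in all kept cells of control. This share was 34.5% ± 0.144 after 3 h, 33.9% ± 0.648 after 24 h and 33.0% ± 0.275 after 72 h. The 72 h mice were all below the control mice (exact two-sided permutation p = 0.0286, adjusted p = 0.147 over 36 comparisons). In myeloid progenitor-like cells the share was 35.9% ± 0.298 in control and 33.2% ± 0.0654 at 72 h, again without overlap (exact permutation p = 0.0286, adjusted p = 0.147). The 3 T region genes went from 10.7% ± 0.801 of the heavy chain UMIs in control to 20.9% ± 0.567 at 3 h, and stood at 10.6% ± 0.263 at 24 h and 10.2% ± 0.355 at 72 h. H2-Q7 went from 4.29% ± 0.245 to 4.75% ± 0.156, 6.36% ± 0.25 and 6.22% ± 0.194. H2-K1 made up 43.8% ± 0.571 of the UMIs of H2-K1 and H2-D1 in control and 46.6% ± 0.424 at 24 h, without overlap. In HSC-like cells this last share was 49.7% ± 1.82 (n = 3) in control and 51.1% ± 0.652 at 24 h, with overlap (exact permutation p = 0.229). As the 36 comparisons cannot give an adjusted value below 0.0571 in this design, none of these shares could pass 0.05.

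Over the 20 means of 5 classes and 4 time points, H2-K1 and H2-D1 were alike (Pearson's r = 0.96 of mean log2 CPM), as were H2-K1 and B2m (r = 0.96), H2-Q6 and H2-Q7 (r = 0.96) and H2-T22 and H2-T23 (r = 0.93). H2-T24 was least like H2-D1 (r = 0.17). These points share libraries and depth, and the coefficients are descriptions. Among the other 7638 genes tested in all classes, those most like H2-T22 were Ifitm3 (r = 0.96), Gbp2 (r = 0.96) and Tap1 (r = 0.95). Those most like H2-T24 were Ube2l6 (r = 0.96), Rnf213 (r = 0.96) and Pml (r = 0.95), and those most like H2-T23 A230050P20Rik (r = 0.97), Zcchc11 (r = 0.95) and Clec2d (r = 0.94). H2-K1 was most like Cirbp (r = 0.96), Cd84 (r = 0.94) and Acap1 (r = 0.93) and H2-D1 most like Cirbp (r = 0.93), Tcp11l2 (r = 0.91) and Coro1b (r = 0.90). B2m was most like Zdhhc18 (r = 0.92), Ly6a (r = 0.92) and Cirbp (r = 0.90). For the Q region they were E130102H24Rik (r = 0.96), A230050P20Rik (r = 0.95) and Irf2 (r = 0.94) with H2-Q4, mt-Cytb (r = 0.92), Zfp281 (r = 0.92) and Zdhhc18 (r = 0.91) with H2-Q6, and Arhgap6 (r = 0.93), Gm15706 (r = 0.93) and Crtc3 (r = 0.92) with H2-Q7.

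Genes of peptide loading, of class I regulation and of class II were counted in the same fits. Of 17 peptide loading and immunoproteasome genes tested, 11 were higher and 3 lower at 3 h in all kept cells by the adjusted p alone, and 3 were higher with a change over 1. Of all genes, 19.7% were higher and 19.2% lower by the p alone, and 5.22% were higher by more than 1. The 3 were Ube2l6, Tapbp, which encodes tapasin, and Tap1, a subunit of the peptide transporter. Ube2l6 encodes an ISG15 conjugating enzyme and was in the list, though it is neither a peptide loading nor an immunoproteasome gene. Ube2l6 went from 33.2 ± 6.63 CPM (SD, n = 4) in control to 318 ± 35.5 CPM at 3 h (3.37 ± 0.085) and 67.1 ± 3.06 CPM at 24 h (1.13 ± 0.083). Tapbp went from 51.9 ± 2.24 to 130.0 ± 8.57 CPM (1.31 ± 0.049) and Tap1 from 65.0 ± 2.95 to 155 ± 12.3 CPM (1.25 ± 0.060). At 24 h they stood at 71.4 ± 1.13 and 113 ± 7.04 CPM, below their 3 h means, where the means of H2-K1 and H2-D1 were above theirs.

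Of 20 listed regulators tested, 10 were higher and 3 lower at 3 h by the p alone, 8 and 1 of them with a change over 1, where 1.68% of all genes were lower by more than 1. Among the largest were Usp18, a negative regulator of the receptor (5.57 ± 0.081), and the transcription factor Irf7 (5.53 ± 0.14), and the gene lower by more than 1 was Irf8, a factor of the myeloid lineage (-1.12 ± 0.10). Irf8 went from 117 ± 8.10 to 54.8 ± 10.6 CPM at 3 h, while the UMI share of the myeloid progenitor-like class, given above, also fell. Its part in this was not tested. Of the other class I and class I-like genes 17 of 19 listed were counted and 8 tested, and 3 were higher and 2 lower at 3 h. Only H2-Q10 changed by more than 1 (1.47 ± 0.24), at 1.503 ± 0.380 CPM in control and 3.97 ± 1.36 CPM at 3 h. None of the 6 class II genes passed the test in all kept cells at 3, 24 or 72 h, with changes between -0.44 and 0.91. Within HSC-like cells at 24 h, however, 5 of the 6 were higher by the p alone (2.31% of genes) and 3 with a change over 1 (0.522%), with changes of up to 2.47. The counts by the p alone at 24 h were 3 in LMPP-like (4.92%) and 4 in MK progenitor-like cells (2.67%).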

How the data were processed

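Single LK bone marrow cells of 16 mice were measured in 4 droplet libraries, 1 for each time point, with the 4 mice of a library told apart by hashtag antibodies. The deposited values were whole UMI counts per gene and cell, which the authors made with Cell Ranger 3.1.0 on mm10. The gene annotation is not given in the sources used here. The authors assigned cells to hashtags in Seurat, and the deposited hashtag margin, a score, was not used. Cells with 1 hashtag, at most 5% mitochondrial UMIs and at least 700 genes were kept. Hashtag multiplets were left out, and doublets of cells with the same hashtag could not be removed.

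Control cells were clustered in Scanpy 1.11.5 (500 variable genes, 10 principal components, 15 neighbours, Leiden resolution 0.8) without 166 class I, class II, antigen presentation and interferon genes. Clusters were named from marker lists, and treated cells took the class of their neighbours after mutual nearest neighbour correction. Without the correction 94.4% of treated cells had the same class. With the class I, class II, antigen presentation and interferon genes kept in the clustering, 84.6% of all cells had the same class. The classes were rebuilt and are not the annotation of the study. UMIs were summed per mouse, or per mouse and class with at least 10 cells, and tested with edgeR 4.0.16 in R 4.3.3 (filterByExpr, TMM, quasi-likelihood, time point as the factor). A gene was called with an adjusted p under 0.05, with or without a log2 change over 1. Differences between classes were tested with limma 3.58.1 (prior count 2), and shares and medians of thinned cells with exact two-sided permutation tests over mice. The fits were tested on simulated data. Depth was 1102706 to 26446327 UMIs per mouse, and the limit for a count of 0 is 3 UMIs, covering counting error only.

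All 9 genes were named. Of each other list, the 3 genes with the largest change among those called at 3 h were named, plus genes called in the other direction, and for likeness the 3 genes with the highest correlation. A result that this rule would name is not reported here. The members, lists and rules were chosen with earlier results of these data known. Alternatives were DESeq2 1.42.0, other scalings and filters, each mouse left out, the hashtag number as a block, other clusterings and thinning depths. Fits within clusters and without clusters of other cell types were added after the values were seen.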

Additional observations from a re-analysis of the deposited data

Results flagged for a closer look

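Among 44 groups of 4 mice, 3 had a mouse far from the rest, and chance sets apart about 1 group in 20. H2-D1 stood at 1690 CPM in 1 mouse at 24 h, where the other 3 had 1569 to 1588 CPM. H2-Q7 stood at 112 CPM in 1 control mouse, against 99.7 to 101 CPM in the others. H2-K1 made up 42.9% of the UMIs of H2-K1 and H2-D1 in 1 control mouse, and 44.0% to 44.1% in the others.

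Across 27 comparisons of a gene at a time point, H2-D1 at 3 h was the 1 in which all treated mice stood above the control mean in some classes and all below it in another. Fitted changes of opposite sign between classes were also found for H2-K1 at 3 h and for B2m, H2-T23 and H2-T24 at 72 h. With TMM scaling no negative change of a whole class passed the test. Within single clusters H2-D1 was lower at 3 h in the Elane cluster (-0.14, edgeR, adjusted p = 0.046). H2-T23 was lower at 72 h in the larger LMPP-like cluster (-0.19, edgeR, adjusted p = 0.048). The log2 change of H2-D1 at 3 h was 0.21 for HSC-like, 0.12 for LMPP-like and 0.43 for erythroid progenitor-like cells, and -0.043 in myeloid progenitor-like cells, where it did not pass the test. The difference between HSC-like and myeloid progenitor-like cells was 0.27 with an adjusted p of 0.31 (limma), and the differences of the other classes from myeloid progenitor-like cells were not tested. With library size alone, the values were -0.018 in HSC-like and -0.040 in LMPP-like cells, neither past the test, and -0.18 in myeloid progenitor-like cells (edgeR, adjusted p = 5.18e-04).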

How the results depend on the processing

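Of 270 values that answer a comparison under alternatives other than leaving out a mouse, 255 were scored as kept in direction and size or side of the threshold. Counts of genes called were scored on size alone, and a count that moved by no more than a set factor passed as kept. With the 5 classes given equal weight, 2 genes in place of 4 were called in all cells at 24 h. Over all genes that fit called 49 of 7655 higher at 24 h, in place of 176 of 12042. With the same weighting H2-T23 at 72 h turned to -0.091. Library size alone turned H2-K1 (-0.060) and H2-D1 (-0.018) in HSC-like and H2-D1 (-0.040) in LMPP-like cells at 3 h, none past the test. It gave lower values that passed for H2-K1 (-0.14) and H2-D1 (-0.18) in myeloid cells at 3 h and for H2-T23 (-0.21) in LMPP-like cells at 72 h, and left 1 erythroid gene called at 72 h in place of 2. That count was also 1 without a low count filter, with the replicate block, and with the members kept in the clustering, which gave 1 HSC-like gene at 24 h in place of 0. The myeloid count at 72 h was 2 in place of 1 with DESeq2, with the replicate block and without the 2% of cells with the most UMIs. The cause of these changes was not tested. The share of all genes called within a class was not counted under the alternatives.

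Leaving out 1 mouse at a time gave 0 to 1 genes in all cells at 72 h (1 without control mouse 3), 1 to 2 in myeloid cells (2 without control mouse 1 or 3, 24 h mouse 3 or 4, or 72 h mouse 2) and 1 to 2 in erythroid cells (1 without control mouse 1 or 72 h mouse 2 or 4). At 24 h it gave 4 to 5 genes in all cells, 2 to 3 in LMPP-like, 3 to 5 in myeloid and 5 to 6 in erythroid cells. Over all genes in all cells, leaving out a mouse called 133 to 198 higher at 24 h and 179 to 238 at 72 h. At 3 h it gave 3 to 4 in HSC-like and 2 to 3 in myeloid cells. The difference between HSC-like and myeloid cells at 3 h gave 0 to 1 (1 without 3 h mouse 2). Thinning to 3000 UMIs, scaled to 5000, gave a difference of medians of 5.0 in LMPP-like cells at 24 h (6.38 at 5000) and 3.75 in erythroid cells at 3 h (2.38). Thinning to 8000 gave, at 3 h, 3.36 in all cells (4.25), 1.61 in HSC-like (4.17) and 3.78 in erythroid cells (2.38), and 0.10 in MK cells at 72 h (1.08). At 8000, 354 cells of the 3 h library were left out, against 61 at 5000.

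Same-numbered mice of different time points shared a hashtag antibody. Over all genes tested they did not deviate together (correlations -0.058 to 0.095 over 24 pairs). A shared effect on few genes would not show in these correlations. With the hashtag number as a replicate block, 125 of 162 values were called where 124 were called without it, and 3 changed. Control mouse 4 gave 58 cells, and H2-T24 few UMIs, which limits their precision.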

Other observations

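Barcodes without a hashtag call that passed the other filters were few, with 43 in the control library and 11, 58 and 19 in those of 3, 24 and 72 h. Their summed H2-K1 level, unscaled, was 705 CPM in control and 651, 1324 and 276 CPM at 3, 24 and 72 h. Kept cells had 917 CPM in control and 995, 1440 and 1095.5 CPM at these times. At 3 and 72 h these barcodes were thus below their control, unlike kept cells, with 52 and 18 UMIs of H2-K1. H2-T22 had 39.5 CPM in these control barcodes and 150.2 at 3 h, the latter from 12 UMIs, against 61.1 and 199.97 CPM in kept cells. At 24 and 72 h it had 74.8 and 15.3 CPM in these barcodes, the last from 1 UMI, against 120.2 and 81.0 CPM in kept cells.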
